A study of Mus musculus with 6 samples.

Results

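The BCL2 family genes studied here were 10 genes chosen by symbol: the survival genes Bcl2, Bcl2l1, Mcl1 and Bcl2l10, the effector genes Bak1 and Bok, and the BH3-only genes Bad, Bid, Bmf and Bcl2l11. They were 10 of 19423 protein-coding genes in the deposited gene table, and all 10 passed the filter on low counts that left 15787 genes. They were measured by RNA sequencing in ovaries of female balb/c-nude mice, an athymic strain that accepts human tumor cells, in 6 libraries labelled day 80. The 3 control libraries came from mice with no treatment named, and the 3 tumor libraries from mice injected under the skin with cells the labels call MBA-MD-231, which the design text describes as breast tumors. In the treatment label the final digit differs between the 3 tumor libraries, while their cell line label is the same. The start of the 80 days, the number of animals behind a library and the estrous stage were not stated, so p-values measure the spread between these libraries only.

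Proteins of the BCL2 family decide whether the outer membrane of the mitochondrion is opened, which releases cytochrome c and starts the caspase cascade. Effectors such as BAK and BAX form the pore, survival members such as BCL-2, BCL-XL (the product of Bcl2l1) and MCL-1 hold them in check, and BH3-only proteins sense stress and either block the survival members or activate the effectors. In the ovary the family sets the fate of oocytes in the resting reserve and drives the death of granulosa cells when follicles degenerate. Bcl2l10, also called Diva or Boo, is known in the adult mouse mainly from oocytes.

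In ovaries of tumor-bearing mice 3 of the death genes fell, Bmf, Bak1 and Bad, and no member rose, at an adjusted p under 0.05 in edgeR's quasi-likelihood test. Over all genes tested 7.71% passed by this rule, 3.91% lower and 3.8% higher. The 3 genes stood at 0.57, 0.62 and 0.66 times the control level. Bcl2l10, counted here among the survival genes, lay highest in the other direction, at 1.85 times control, with an adjusted p of 0.0536. In 7 of the 10 members the 3 tumor libraries did not overlap the 3 control libraries, 4 higher and 3 lower. This was judged in CPM, counts scaled to library size and TMM factor. Over all genes tested the groups did not overlap in 38.1%, with tumor higher in 19.8% and lower in 18.4%. Mcl1 and Bcl2l11 overlapped in CPM and not in TPM (scaled by transcript length), for which no share over all genes was computed. The median log2 fold change, tumor minus control, was 0.12 over the 10 members and -0.02 over all genes tested. By role, the medians were 0.27 for the 4 survival genes, -0.34 for the 2 effectors and -0.18 for the 4 BH3-only genes. So few genes do not give a pattern by role. The effectors were Bak1 at -0.69 and Bok at -0.00, and of the BH3-only genes Bmf and Bad lay below 0 and Bid and Bcl2l11 above it.

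**Figure D1:**
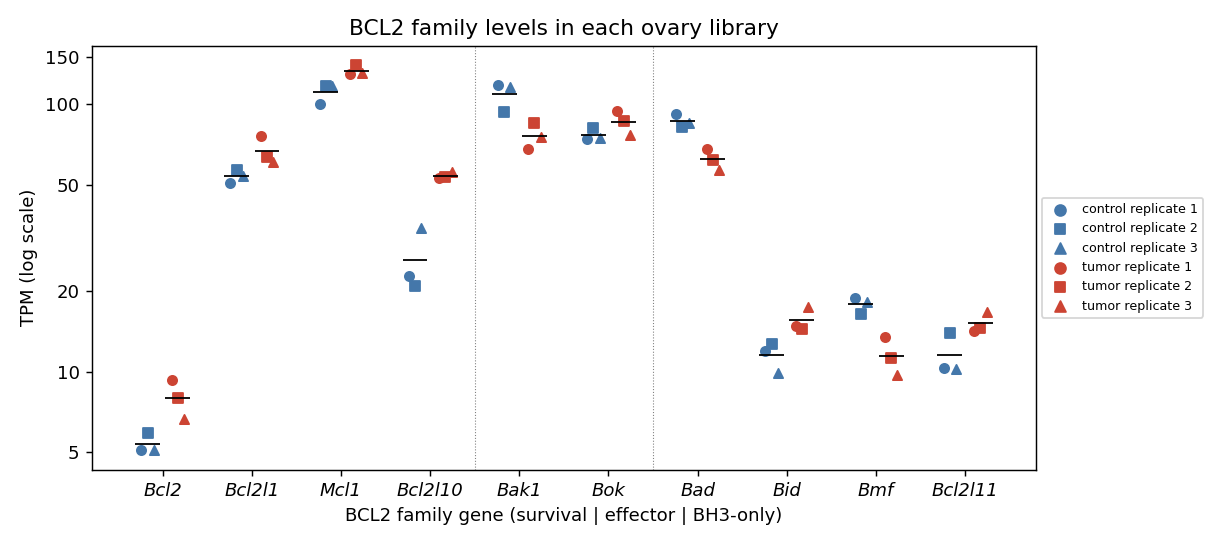
Level of each member in each library, in TPM on a log scale; blue points are control and red points tumor libraries, marker shapes give the replicate number and black lines the group means. Bak1, Bad and Bmf sit lower in all 3 tumor libraries than in all 3 controls, and Bcl2l10 sits between 52.7 and 55.8 TPM in tumor against 21.0 to 34.5 TPM in control.

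Library totals lay between 18278614 and 19238900 estimated counts. On principal components of log2 CPM, with 52.1% and 28.8% of the variance, tumor replicate 1 lay apart from the other tumor libraries (-34.6 against 49.6 and 75.1 on the first, and -66.5 against -2.3 and -6.2 on the second). Markers of other cells in the dissected tissue differed with it. Summed over 8 adipocyte markers, all detected apart from Ucp1, which was at 0 in 4 libraries, the level was 8139, 843.4 and 3441 CPM in tumor replicates 1, 2 and 3 and 539.3 to 724.7 CPM in control. Summed over 8 oviduct markers it was 2068, 174 and 82.5 CPM in the tumor replicates and 541.3 to 2357 CPM in control. Markers that define ovary were present: the sum over 16 oocyte markers was 503.9 to 661.2 CPM in the controls and 771.1 to 976.2 CPM in the tumor libraries, and over 8 granulosa markers 3461 to 4122 and 2587 to 4619 CPM. Inha was the largest term of the granulosa sum in every library, so the sum says little of the other markers. Of the 8, 1 rose and 7 did not pass. The sum over 7 luteal markers was 9089 to 9759 CPM in the controls and 606.6 to 3775 CPM in the tumor libraries, with Cyp11a1 its largest term in every library. In bulk tissue, fewer cells of a type and less RNA per cell cannot be told apart.

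Per length, in TPM (the deposited abundance scaled by transcript length), Mcl1 was the most abundant member in both groups and Bcl2 the least. In control ovaries the order of mean TPM was Mcl1, Bak1, Bad, Bok, Bcl2l1, Bcl2l10, Bmf, Bid, Bcl2l11 and Bcl2, where Mcl1 and Bak1 (111 and 109 TPM), and Bid and Bcl2l11 (11.5 TPM each), overlapped between libraries. In tumor ovaries the order was Mcl1, Bok, Bak1, Bcl2l1, Bad, Bcl2l10, Bid, Bcl2l11, Bmf and Bcl2. There Bok, Bak1, Bcl2l1 and Bad formed a run in which each overlapped the next (85.5, 75.8, 66.5 and 62.1 TPM), as did Bid and Bcl2l11 (15.6 and 15.2 TPM). Bmf thus stood above Bid and Bcl2l11 in control and below them in tumor.

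Bcl2l10, the oocyte member, was measured at 14.2, 11.9 and 20.6 CPM (counts scaled to library size and TMM factor) in control replicates 1, 2 and 3 and at 27.4, 28.4 and 30.5 CPM in those of tumor mice. The tumor libraries lay close together and above all controls, while control replicate 3 lay nearest to them. The means were 15.6 ± 4.47 and 28.8 ± 1.54 CPM (SD, n = 3 each). The log2 fold change of 0.89 ± 0.21 (SE) missed the threshold (edgeR adjusted p = 0.0536, over alternatives 0.00359 to 0.330). It passed with DESeq2 (0.90, adjusted p = 0.00359), where 19.4% of all genes passed, and with limma on log2(FPKM + 1) (0.93, adjusted p = 0.0408), where 8.5% did. It also passed in edgeR without tumor replicate 1 (0.92, adjusted p = 0.0484, 16.3% of all genes) and with the mean of the oviduct markers as a covariate (0.76, adjusted p = 0.0446, 14.7%). The authors' deposited table gives it a log2 fold change of 0.90 with a q of 0.00442, in a table where 14.7% of genes had a q under 0.05.

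Of 16 oocyte markers 7 rose in the tumor libraries and the remaining 9 did not pass, with a median log2 fold change of 0.70. Earlier results on these data had shown oocyte genes higher, so this direction is no independent evidence. Bcl2l10 was therefore set against them within each library. Its log2 CPM minus the mean of the 16 markers was 0.03, -0.28 and 0.13 in control replicates 1, 2 and 3 and -0.04, 0.25 and 0.26 in tumor. The groups overlapped, and the means of -0.04 ± 0.21 and 0.16 ± 0.17 (SD, n = 3 each) differed by 0.19 with a two-sided exact permutation p of 0.3, where 3 libraries against 3 cannot go below 0.1. The test could therefore not have passed the threshold, and whether Bcl2l10 differed relative to other oocyte genes cannot be told from these libraries. The genes whose log2 CPM followed Bcl2l10 most closely over the 6 libraries, among 13807 candidates, were D5Ertd577e, the histone methyltransferase gene Ezh2 and Rimkla, with Pearson r of 0.997, 0.996 and 0.996. These r describe 6 libraries in which both groups enter, and none of the 3 genes passed (log2 fold changes 1.04, 0.47 and 0.88, edgeR adjusted p 0.0742, 0.0590 and 0.0652).

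**Figure D2:**
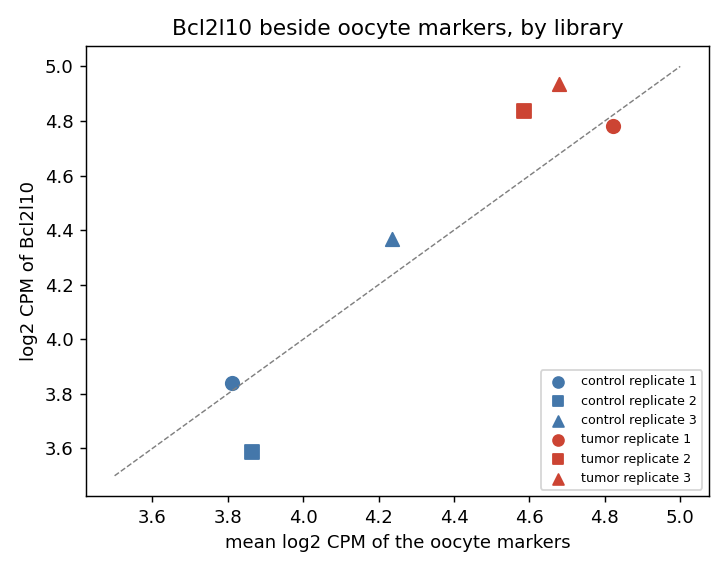
Log2 CPM of Bcl2l10 against the mean log2 CPM of 16 oocyte markers, 1 point per library; blue is control, red is tumor, shapes give replicate numbers, and the dashed line marks equal values. All tumor points lie up and to the right of the controls, and tumor replicate 1 sits just under the line (-0.04) while tumor replicates 2 and 3 sit 0.25 and 0.26 above it.

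The other survival genes had smaller fold changes, and none passed. Mcl1, a short-lived guard of BAK, was measured at 182, 193 and 203 CPM in the controls and 195, 216 and 207 CPM in the tumor libraries, with groups that overlapped and a log2 fold change of 0.10 ± 0.09 (SE). Bcl2l1 stood at 66.7, 67.8 and 67.1 CPM in the controls and 83.2, 70.3 and 69.5 CPM in those of tumor mice. The tumor libraries of Bcl2l1 lay just above a very narrow control range, with tumor replicate 1 apart from the other two, and its log2 fold change of 0.14 ± 0.10 was 0.06 without that library and 0.00 with the adipocyte markers as a covariate. Bcl2, the founding member, was measured at 19.1, 20.5 and 17.6 CPM in the controls and 28.9, 24.9 and 21.7 CPM in the tumor libraries, where tumor replicate 1 was again the highest. Its log2 fold change was 0.40 ± 0.14 (SE, edgeR adjusted p = 0.115, over alternatives 0.0364 to 0.503). It passed with the oviduct markers as a covariate (0.53), and was 0.21 after a correction that removes the trend of each library with gene length. Mcl1 and Bcl2l1 had edgeR adjusted p of 0.492 and 0.350.

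Of the effectors, Bak1 fell and Bok did not pass. Bak1, one of the pore-forming proteins, was measured at 122, 87.6 and 114 CPM in control replicates 1, 2 and 3 and at 58.5, 74.6 and 67.8 CPM in the tumor libraries. Every tumor library lay below every control, with control replicate 2 and tumor replicate 2 the closest to each other. From 108 ± 17.9 to 67.0 ± 8.11 CPM (SD, n = 3 each), Bak1 had a log2 fold change of -0.69 ± 0.15 (SE, edgeR adjusted p = 0.0489), just under the threshold. The call ended without control replicate 1 (-0.57, adjusted p = 0.164), control replicate 3 (-0.61, 0.151), tumor replicate 1 (-0.60, 0.0509), tumor replicate 2 (-0.77, 0.0991) or tumor replicate 3 (-0.70, 0.141) and held without control replicate 2 (-0.77, 0.0261, where 14.2% of all genes passed). In the fits where the call ended, 0, 5, 2605, 3 and 0 of all genes passed, in that order. It also missed the threshold with no filter on low counts (0.0508) and in limma on log2(FPKM + 1) (0.0519). After the gene length correction Bak1 was at -0.50 (edgeR adjusted p = 0.194), in a fit where 0.83% of all genes passed. With the replicate number as a block it was at -0.68 (edgeR adjusted p = 0.117), where 0% of all genes passed. With the mean of the adipocyte markers as a covariate, a fit in which no gene of all tested passed, Bak1 was at -0.40 (adjusted p = 0.380). The authors' deposited table gives Bak1 a log2 fold change of -0.67 with a q of 0.00231.

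Bok, an effector that is not held by the survival members in the usual way, stood at 59.3, 59.1 and 56.7 CPM in the controls and at 62.7, 58.6 and 53.4 CPM in those of tumor mice. The groups overlapped, with means of 58.4 ± 1.44 and 58.3 ± 4.68 CPM (SD, n = 3 each), and the sign of its log2 fold change of -0.00 ± 0.09 (SE) turned under 9 of 14 alternatives. Since MCL-1 and BCL-XL are the survival proteins known to hold BAK, the TPM of their genes was set against that of Bak1, a pair of ratios chosen after the values were seen and given without a test. Mcl1 stood at 0.85, 1.25 and 1.01 times the TPM of Bak1 in control replicates 1, 2 and 3, and at 1.90, 1.65 and 1.74 times in tumor. Bcl2l1 stood at 0.43, 0.61 and 0.46 times in control and at 1.12, 0.75 and 0.81 times in tumor. The groups did not overlap in either ratio. This follows from the single genes, as in TPM every tumor library lay below all controls for Bak1 and above them for Mcl1 and Bcl2l1. The ratios are therefore no further evidence.

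**Figure D3:**
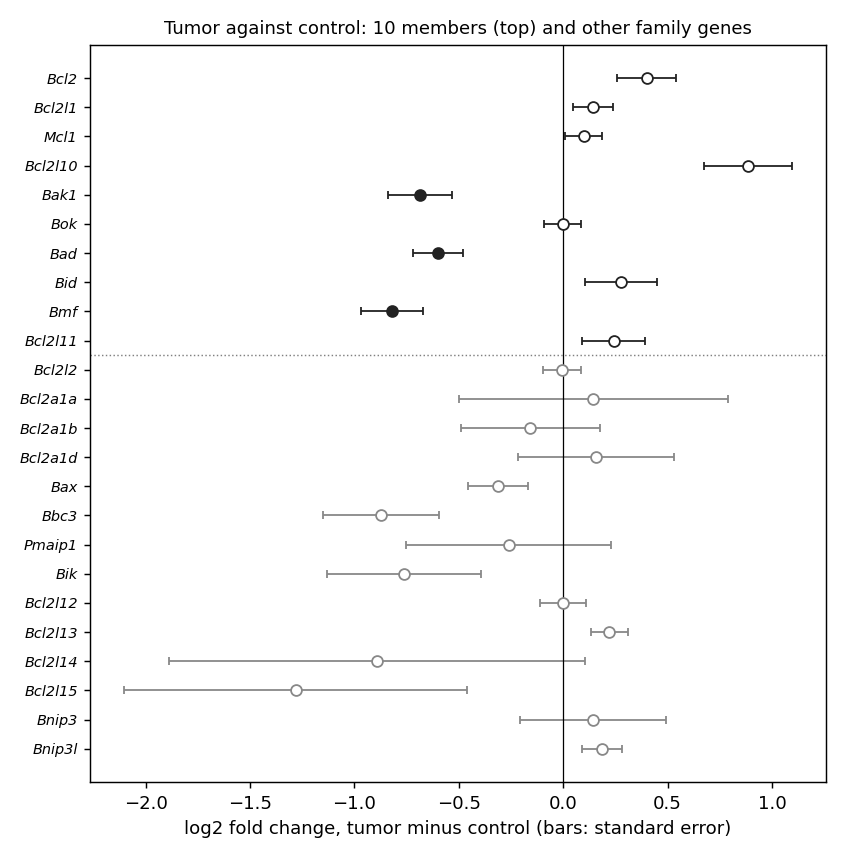
Log2 fold changes of tumor minus control with their standard errors for the 10 members (black, above the dotted line) and 14 tested genes of the wider family (grey); filled points had an edgeR adjusted p under 0.05. Only Bak1, Bad and Bmf are filled, at -0.69, -0.60 and -0.82, and Bcl2l10 lies farthest to the right at 0.89.

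Among the BH3-only genes Bmf and Bad fell while Bid and Bcl2l11 did not pass. Bmf, whose product is held at the cytoskeleton and released when cells detach, was measured at 45.8, 35.7 and 41.6 CPM in the controls and 26.7, 22.7 and 20.2 CPM in those of tumor mice. The highest tumor library lay well under the lowest control, with means of 41.0 ± 5.10 and 23.2 ± 3.32 CPM (SD, n = 3 each). Its log2 fold change was -0.82 ± 0.15 (SE, edgeR adjusted p = 0.0385). Bad, which is switched off by phosphorylation under growth factor signals, was measured at 50.6, 41.9 and 44.0 CPM in the controls and 33.4, 29.0 and 27.6 CPM in the tumor libraries. Again no tumor library reached a control, and the fall from 45.5 ± 4.57 to 30.0 ± 3.07 CPM was a log2 fold change of -0.60 ± 0.12 (SE, edgeR adjusted p = 0.0412). In the authors' deposited table Bmf has -0.81 with a q of 0.000226 and Bad -0.59 with a q of 0.00168.

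Both calls were lost in the following fits with 1 library left out. In these fits 0, 5, 3 and 0 genes of all tested passed, in the order given. Bmf had edgeR adjusted p of 0.153 without control replicate 1, 0.130 without control replicate 3, 0.0994 without tumor replicate 2 and 0.120 without tumor replicate 3, with log2 fold changes between -0.81 and -0.71, and Bad had 0.163, 0.139, 0.115 and 0.130 with log2 fold changes between -0.59 and -0.49. Without tumor replicate 1, the library that lay apart, the calls held, with -0.94 and 0.0277 for Bmf and -0.68 and 0.0313 for Bad. In that fit 16.3% of all genes passed. After the gene length correction Bmf was no smaller (-0.90, adjusted p = 0.0554) while Bad moved to -0.30 (adjusted p = 0.178), in a fit where 0.83% of all genes passed. Of 7 luteal markers 3 fell and 4 did not pass, and their summed CPM, given above, was lower in every tumor library, as were Bak1, Bad and Bmf. The part of luteal tissue in these results was not tested.

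Bid, which links death receptors to the mitochondrion, stood at 11.7, 11.3 and 9.25 CPM in the controls and 12.1, 12.1 and 14.9 CPM in those of tumor mice. The groups were separated by less than 1 CPM, and its log2 fold change was 0.28 ± 0.17 (SE, edgeR adjusted p = 0.322). Bcl2l11, the gene of BIM, a potent killer of granulosa cells and a known FOXO3 target, was measured at 26.4, 32.7 and 24.8 CPM in the controls and 30.2, 31.1 and 37.9 CPM in the tumor libraries. Control replicate 2 overlapped the tumor range, and the log2 fold change of 0.24 ± 0.15 (SE) had an adjusted p of 0.318. Without control replicate 2 Bcl2l11 had 0.41, with an adjusted p of 0.0938.

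The transcripts behind the members were examined because some members, Bad and Bmf among them, have more than 1 main transcript. Main here means a mean share of at least 10% of the gene's TPM in either group. Of 32 listed transcripts of the members 24 were tested, and none passed edgeR's threshold, with 4 at an unadjusted p under 0.05; among all 40228 transcripts tested 3 passed (0.00746%), 0.00249% higher and 0.00497% lower. Splitting reads of 50 bases between transcripts is an estimate of the authors' pipeline. For Bmf, NM_138313.4 was measured at 15.3, 9.62 and 10.3 TPM in control and 5.44, 4.09 and 3.40 TPM in tumor. Its tumor libraries lay far below its controls, at -1.60 ± 0.31 (SE) on the log2 scale of counts (edgeR adjusted p = 0.159). The other main transcript of Bmf, NM_001331221.1, was measured at 3.63, 6.75 and 7.95 TPM in control and 7.09, 7.12 and 5.35 TPM in tumor, with groups that overlapped and a log2 fold change of -0.05 ± 0.33 (SE). NM_138313.4 thus made up 80.8%, 58.8% and 56.4% of the gene's TPM in control and 40.4%, 36.5% and 35.1% in tumor.

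For Bad, NM_001285453.1 was measured at 66.5, 55.4 and 63.6 TPM in control and 38.6, 43.9 and 38.9 TPM in tumor, again with no overlap, and its log2 fold change on counts was -0.76 ± 0.16 (SE, edgeR adjusted p = 0.159). NM_007522.3, which starts upstream, stood at 25.5, 26.6 and 21.6 TPM in control and 29.3, 17.8 and 17.6 TPM in tumor, where tumor replicate 1 was above all controls and the other two below. The difference between the transcripts of a gene in their change was not tested. Bak1, Bok and Bcl2l10 had all their TPM in 1 transcript each, and Mcl1 and Bcl2 at least 93.5% in 1 in every library. Bcl2l1 was carried mainly by NM_009743.5, at 38.2 ± 0.332 TPM in control and 44.7 ± 9.14 TPM in tumor (SD, n = 3 each). Its other main transcript, NM_001289716.1, held 21.8% on average in control and 19.3% in tumor. Bcl2l11 was spread over 9 listed transcripts, of which NM_207680.2 held 45.1% to 67.9% in the 6 libraries. XM_006498614.3 and XM_006498617.3 were also main transcripts of Bcl2l11. For Bid, NM_007544.4 held 91.1% on average in control and 82.2% in tumor, and XM_006505410.4 was detected only in tumor replicate 1, at 34.7%.

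**Figure D4:**
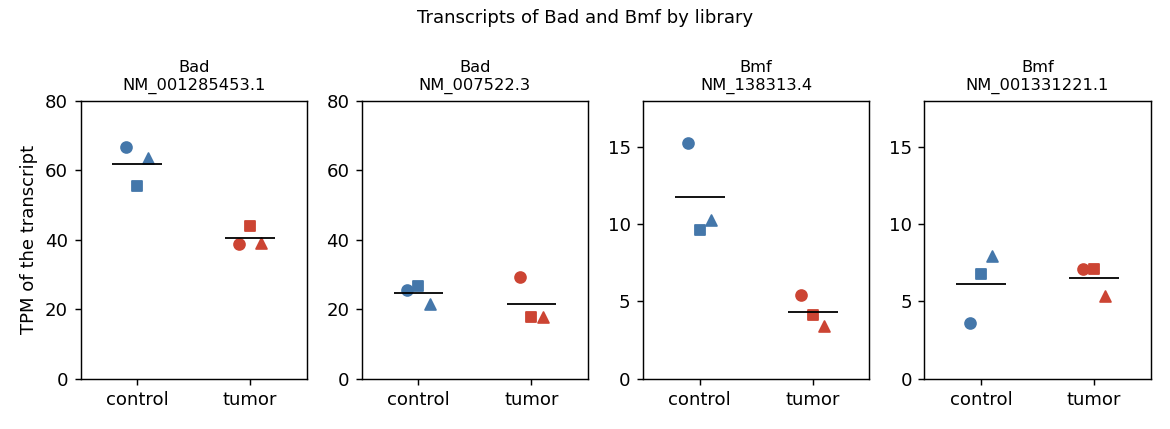
TPM of the 2 main transcripts of Bad and of Bmf, by group, with 1 point per library, circles, squares and triangles for replicates 1, 2 and 3 and black lines for group means. NM_138313.4 of Bmf and NM_001285453.1 of Bad lie lower in all tumor libraries, while NM_007522.3 and NM_001331221.1 overlap between groups.

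Sequences just upstream of starts of Bmf, Bad and Bak1 are shown because these genes were called. Both Bad starts carry a measured transcript, so both are shown. A Bcl2l11 promoter stands beside them, the only promoter of a BH3-only member with a FOXO word. Other promoters of Bmf and Bcl2l11 are not printed. In RefSeq on GRCm38.p6 the Bmf gene spans positions 118528757 to 118549686 of chromosome 2, Bad 6941861 to 6951905 of chromosome 19, and Bak1 27019812 to 27028627 of chromosome 17. The sequences come from RefSeq, which held promoters of 9 of the 10 members, 15 in all. Each is the 250 bases before a start, 5′ to 3′ on the gene's strand, with matches to the searched words in capitals. The transcript starts and distances given with them are those of GENCODE transcripts paired with the RefSeq names, which can differ from the RefSeq starts. They are Bmf at chr2:118549687-118549936 (minus strand, 1 base from the annotated start of NM_138313), Bad at chr19:6941611-6941860 (plus strand, at the start of NM_007522) and at chr19:6942312-6942561 (plus strand, 61 bases from the start of NM_001285453), Bak1 at chr17:27028628-27028877 (minus strand, 382 bases from the annotated start of NM_007523) and Bcl2l11 at chr2:128125788-128126037 (plus strand).
Bmf: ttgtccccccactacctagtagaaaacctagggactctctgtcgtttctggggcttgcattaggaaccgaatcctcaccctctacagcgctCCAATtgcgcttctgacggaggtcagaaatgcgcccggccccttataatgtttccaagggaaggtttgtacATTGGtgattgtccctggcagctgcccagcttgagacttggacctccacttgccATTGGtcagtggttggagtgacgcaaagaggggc
Bad, upstream start: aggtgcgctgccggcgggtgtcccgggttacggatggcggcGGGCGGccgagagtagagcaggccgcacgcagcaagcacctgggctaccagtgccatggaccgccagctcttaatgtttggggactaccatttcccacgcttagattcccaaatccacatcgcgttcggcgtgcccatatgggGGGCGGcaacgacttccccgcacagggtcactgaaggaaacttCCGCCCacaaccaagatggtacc
Bad, downstream start: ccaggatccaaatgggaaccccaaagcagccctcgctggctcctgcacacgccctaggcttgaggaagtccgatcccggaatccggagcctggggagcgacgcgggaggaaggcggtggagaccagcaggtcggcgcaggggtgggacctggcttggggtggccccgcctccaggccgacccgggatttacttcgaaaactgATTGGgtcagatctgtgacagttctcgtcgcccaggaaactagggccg
Bak1: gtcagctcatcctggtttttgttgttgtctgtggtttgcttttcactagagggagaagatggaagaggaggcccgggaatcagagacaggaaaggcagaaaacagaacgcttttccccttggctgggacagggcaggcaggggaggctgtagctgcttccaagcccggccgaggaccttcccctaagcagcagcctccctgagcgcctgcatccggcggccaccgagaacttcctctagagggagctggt
Bcl2l11: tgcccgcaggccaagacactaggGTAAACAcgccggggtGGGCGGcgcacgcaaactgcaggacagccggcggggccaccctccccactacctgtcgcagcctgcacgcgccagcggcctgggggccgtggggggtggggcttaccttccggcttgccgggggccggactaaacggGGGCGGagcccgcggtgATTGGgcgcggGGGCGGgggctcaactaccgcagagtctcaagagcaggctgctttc

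Both strands were searched for GTAAACA (FOXO), CAAGGTCA (SF1), CACGTG (E-box), TGACGTCA (CRE), GGGCGG (GC box) and CCAAT. Words did not overlap one another in the promoters of the members. The Bmf promoter shown held CCAAT at -159, -88 and -34 from the start. Of those not shown, a Bmf promoter held CCAAT at -244 and another held none of the 6 words. The upstream Bad promoter held GGGCGG at -209, -66 and -23, and the downstream one held CCAAT at -48, so the starts of Bad differed in the words they carry. The Bak1 window, which borders the gene as RefSeq places it but lies 382 bases from the paired GENCODE start, held none of the 6 words. The Bcl2l11 promoter shown held GTAAACA at -227, GGGCGG at -211, -74 and -46, and CCAAT at -57. Another Bcl2l11 promoter, not shown, held GGGCGG at -181 and -127, CCAAT at -106 and -74, and no GTAAACA. Of 32851 promoters of the same length, 33.8% held CCAAT, 32.7% GGGCGG and 3.17% GTAAACA, and of the 15 promoters of members 5, 7 and 1 did. A match describes letters in this window and not a bound site.

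The rest of the family showed no call. Of 15 further BCL2 family genes 14 were tested and none passed edgeR's threshold, with 2 at an unadjusted p under 0.05, 1 passing in DESeq2 and a median log2 fold change of -0.08. Bbc3, the gene of PUMA, the BH3-only protein that kills oocytes after DNA damage, stood at 10.2, 7.91 and 7.53 CPM in the controls and 6.02, 4.63 and 3.32 CPM in those of tumor mice. The tumor libraries lay below all controls, and the log2 fold change of -0.87 ± 0.28 (SE) missed the threshold (edgeR adjusted p = 0.0932, over 14 alternatives 0.0431 to 0.365). It passed in DESeq2 (0.0431) and without tumor replicate 1 (0.0450), and in none of the others run, with 0.312 without control replicate 1 and 0.365 with the adipocyte covariate. Bax, the other pore-forming effector, had -0.31 ± 0.14 (SE, edgeR adjusted p = 0.194), and after the gene length correction its sign was the opposite (0.05). Bik, a BH3-only gene, and Bcl2l13, a mitochondrial family member, were at -0.76 ± 0.37 and 0.22 ± 0.09 on that scale (adjusted p = 0.216 and 0.151). Hrk, a BH3-only gene, was too low to test, and Pmaip1, the gene of NOXA, was under 1 CPM on average in both groups. Without tumor replicate 1, 2 of the 14 fell, Bbc3 among them, in a fit where 16.3% of all genes passed.

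Among 19 apoptosome and caspase genes 3 rose and the other 16 did not pass, beside 3.8% of all genes tested that rose. The median log2 fold change of the list was -0.04. Cflar, whose product c-FLIP blocks caspase-8, was measured at 72.8, 80.6 and 82.6 CPM in the controls and 111, 117 and 117 CPM in the tumor libraries, so that both groups were tight and well apart, with a log2 fold change of 0.55 ± 0.08 (SE) and an edgeR adjusted p of 0.0346. Xiap, an inhibitor of caspases, had 81.2, 88.3 and 86.7 CPM in the controls and 113, 111 and 111 CPM in the tumor libraries (0.38 ± 0.07, adjusted p = 0.0397). Casp2, a caspase known for its part in oocyte death, rose by 0.44 ± 0.09 with an adjusted p of 0.0463, so the genes that rose hold blockers of caspases and a caspase. Casp6, an executioner caspase, stood at 78.0 ± 11.6 CPM in the controls and 51.2 ± 6.49 CPM in the tumor libraries (SD, n = 3 each), and missed the threshold (edgeR adjusted p = 0.0559). After the gene length correction none of the 19 passed edgeR's threshold, with Cflar at 0.42, Xiap at 0.21 and Casp2 at 0.46. None passed either without control replicate 1, control replicate 3, tumor replicate 2 or tumor replicate 3, or with the adipocyte covariate, and over these fits and the length correction 4 to 7 had an unadjusted p under 0.05. The fits just named with 1 library left out and the adipocyte fit called 0, 5, 3, 0 and 0 of all genes, in that order. Without tumor replicate 1 the list had 3 higher and 3 lower, where 16.3% of all genes passed.

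Of 20 mitochondrial partners and regulators of the family, 3 rose and the remaining 17 did not pass, again beside 3.8% of all genes, with a median log2 fold change of 0.04. They were the kinase gene Mapk8, which encodes JNK1, an activator of BIM and BMF, with 0.51 ± 0.10 (SE) and an edgeR adjusted p of 0.0412, and the transcription factor genes Foxo3 and Foxo1, with 0.55 ± 0.09 and 0.95 ± 0.21 and adjusted p of 0.0374 and 0.0480. Foxo3 and Foxo1 were known to rise from earlier results on these data. Usp9x, a deubiquitinase that stabilizes MCL-1, had 0.47 ± 0.11 with an adjusted p of 0.0519. Trp63, the oocyte guardian upstream of PUMA and named here after its values were seen, had 0.99 ± 0.30 (adjusted p = 0.0869). After the gene length correction none of the 20 passed edgeR's threshold, with Mapk8 at 0.39, Foxo3 at 0.36 and Foxo1 at 0.85. All 3 calls were also lost without control replicate 1, control replicate 3, tumor replicate 2 or tumor replicate 3 and with the adipocyte covariate, and over these fits and the length correction 4 to 8 of the 20 had an unadjusted p under 0.05. Of all genes, 0, 5, 3, 0 and 0 passed in those left-out fits and the adipocyte fit, in that order.

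**Figure D5:**
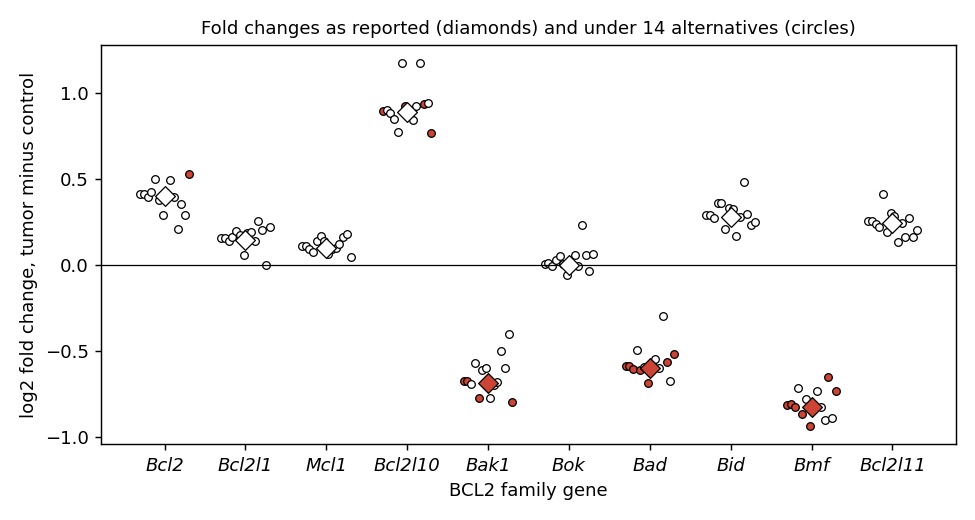
Log2 fold change of each member as reported (diamonds) and under 14 alternatives (circles); red fill marks an adjusted p under 0.05. Bmf, Bad and Bak1 lie below 0 and Bcl2l10 above 0 under all 14 alternatives, passing in 7, 7, 4 and 4 of them, and Bok lies on both sides of 0.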

How the data were processed

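RNA of ovaries in 3 control and 3 tumor libraries was compared. The submitters' processing notes name RSEM 1.2.12, HISAT2 2.0.4, Bowtie2 2.2.5 and the build GRCm38.p6 without their roles. Estimated counts of genes and transcripts were deposited, of which 39.2% of the gene values above 0 were not whole, with TPM and FPKM. A deposited table holds the authors' own DESeq2 comparison with its log2 fold changes, q-values and p-values. A further 24 columns of sample values were not used.

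Estimated counts were rounded, filtered with filterByExpr of edgeR 4.0.16 in R 4.3.3 and scaled by TMM factors (0.962 to 1.05). Groups were compared with edgeR's robust quasi-likelihood test and Benjamini-Hochberg adjustment over all 15787 genes, at 0.05; the SE is the absolute log2 fold change over the square root of F. CPM are TMM-scaled, and log2 CPM uses a prior count of 2. Transcripts were fitted likewise (40228 tested). The gene length correction is an offset per library from a spline on length, derived from deposited counts and FPKM. DESeq2 1.42.0 and limma 3.58.1 on log2(FPKM + 1) were alternatives. Fits were tested on simulated data. Any 2 libraries differed beyond sampling noise (chi-square per degree of freedom of at least 13.1).

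The members and lists were chosen with earlier results of these data known. All members were named, with the 4 genes of smallest p from each other list, the 3 genes closest to Bcl2l10 among those of at least 1 average log2 CPM, and transcripts holding at least 10% of their gene, those of main interest in full.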

Additional observations from a re-analysis of the deposited data

How the results depend on the processing

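Of 140 values of single members under 14 alternatives, 102 kept their direction and side of the threshold, 24 lost a call, 5 gained one and 9 turned sign, all 9 for Bok: 0.0076 with DESeq2, 0.0104 with RLE factors, 0.23 after the gene length correction, 0.0579 on log2(FPKM + 1), 0.0639 with the oviduct covariate, and above 0 without control replicate 1, 2 or 3 or tumor replicate 3 (range with 1 library left out -0.0580 to 0.0560). The list gene Bax turned to 0.0472 after the length correction.

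The 3 calls among members became 0 after the length correction (6 members at an unadjusted p under 0.05), 0 with the adipocyte covariate (3) and 5 with the oviduct covariate, and lay between 0 and 3 with 1 library left out; DESeq2 gave 4 (1 higher, 3 lower). Over all genes, 1217 calls became 3029 with DESeq2, 131 after the length correction, 0 with the adipocyte covariate (2287 at an unadjusted p under 0.05) and 2323 with the oviduct covariate, and lay between 0 and 2605 with 1 library left out. Without control replicate 1 or tumor replicate 3 edgeR called 0 genes, with 3137 and 3761 at an unadjusted p under 0.05. The fits with 1 library left out had fewer samples, and those with a covariate had fewer degrees of freedom. The causes of these differences were not tested.

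With the replicate number as a block edgeR called 0 members (5 at an unadjusted p under 0.05) and 0 genes in all (4233). Whether the numbers pair the libraries cannot be told from 3 libraries per group. Correlations of deviations between same-numbered libraries were 0.24, -0.21 and 0.53, and 3 of 6 libraries correlated best with their own number. In that block Bcl2l10 against oocyte markers had 0.19 (exact sign-flip p = 0.5), and over its alternatives 0.08 to 0.29. With 3 pairs the sign-flip test could not have passed the threshold either. No transcript of a member passed under any of the 8 alternatives run, the block included, with 4 to 7 at an unadjusted p under 0.05. Alternatives for the other gene lists were added after seeing the data. Over 14 alternatives the wider family had 0 to 2 calls, the apoptosome and caspase list 0 to 6 and the partners and regulators 0 to 5, each with 0 in the block. The smallest count of a member was 172, for Bid in control replicate 3. The share of counting error in the spread between libraries was not computed.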
